A study of Lachancea kluyveri with 16 samples.

Results

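The comparison described here is that of a SEF1-VP16 strain with its wild type (WT) on arrays labelled YPD, across all genes of the budding yeast *Lachancea kluyveri*. Its members were chosen by title: the 4 arrays of SEF1-VP16 cells and the 4 arrays of WT cells labelled YPD, 8 of the 16 arrays of the series. For every gene the brighter of its probes was used, and the change was the mean of the SEF1-VP16 arrays minus the mean of the WT arrays. Of 5316 genes with a probe, 5267 were tested. The WT strain was JYL1897 (*MATa ura3*), and the SEF1-VP16 strain was derived from it and expressed, from the native *SEF1* locus, a Sef1 whose C-terminal end was joined to the transcriptional activation domain of viral VP16 (*MATa ura3 SEF1-VP16::FRT*). The marker *ura3* was thus shared by both strains, and each strain was 1 clone. Overnight cultures in YPD, a rich medium with glucose, were kept at 28 °C, diluted to 0.2 OD600 per ml, and the subcultures were kept at 30 °C for 5.5 h. Each array held labelled cDNA of 1 biological repeat. The other 8 arrays held the same strains and were labelled YPGly, the corresponding medium with glycerol, and they served here for the estimate of spread and for side by side values.

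Sef1 is a zinc cluster transcription factor. In *Candida albicans* it activates iron uptake genes when iron is scarce, whereas the study of *L. kluyveri* asked whether it acts on the tricarboxylic acid (TCA) cycle and, in this comparison, which genes respond when its activation strength is raised during growth labelled as glucose. The TCA cycle oxidises acetyl-CoA in mitochondria and feeds electrons to respiration, and several of its enzymes, aconitase and succinate dehydrogenase among them, carry iron-sulfur clusters, which are built in mitochondria by dedicated assembly proteins. Gene symbols below name the *Saccharomyces cerevisiae* orthologs listed by the study, and roles are those known in that species. Other genes are given by locus tag, in which the letter is the chromosome and the number rises along it.

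Values are log2 processed signals minus the 75th percentile of the array, called levels below, and a level of one gene is not set against that of another. All arrays labelled YPD lay on slide 1 and all labelled YPGly on slide 2, so that slide and labelled medium cannot be told apart. On slide 1 the WT arrays filled array row 1 and the SEF1-VP16 arrays row 2, and strain and array row therefore cannot be told apart either. Between 94.49% and 99.95% of gene probes were well above background on the 8 arrays, none was saturated, and levels of 2 arrays of 1 strain correlated across genes at 0.977 to 0.994. WT replicates 1 and 4 lay apart on the first principal component of the 8 arrays, at −13.0 and −22.9, against −0.83 to 14.5 on the other 6 arrays, and this component held 37.2% of the variance. The label of the medium was checked with genes for growth on non-fermentable carbon. Of 20 such genes, 18 had a lower mean level on the WT arrays labelled YPGly than on the WT arrays labelled YPD (median difference −2.03), the opposite of what the labels give. Glucose markers showed little difference: 7 of 12 were lower on the WT arrays labelled YPGly, with a median difference of −0.09. The study's own materials place the strain changes measured on the arrays labelled YPD under YPD in one listing and under YPGly in another. Which medium these cells grew in is therefore not settled, the medium is named below only as labelled, and where results are set beside peaks or deletion effects of a named medium, the media need not match. In SEF1-VP16 minus WT labelled YPD, these 20 genes had a median change of −0.21 with 0 called higher and 1 lower, 12 glucose markers had a median of −0.31 with 0 called higher and 1 lower, and 20 stress and stationary phase genes had a median of −0.11 with none called.

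The tagged gene itself comes first. *SEF1* (SAKL0F12342g) lay at −2.06, −1.86, −1.80 and −1.71 on the 4 WT arrays and at −2.32, −2.42, −2.18 and −2.10 on the 4 SEF1-VP16 arrays. All SEF1-VP16 arrays were thus below all WT arrays. The change of −0.39 (SE 0.10, adjusted p 0.0338 in limma) did not reach 1.5-fold, and *SEF1* was not called. The probe need not lie at the tag, so this level says nothing of the presence of the fusion. *AFT1* (SAKL0A04532g), the ortholog of the iron regulator of *S. cerevisiae*, lay between −3.11 and −2.56 in WT and between −2.21 and −1.89 in SEF1-VP16, without overlap. It rose by 0.70 (SE 0.12, adjusted p 0.00213), or 0.58 without WT replicate 1, which is below 1.5-fold.

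A gene was called where its adjusted p in limma, over all 5267 genes, was 0.05 or less and its change at least 1.5-fold. By this rule 78 genes were higher and 34 lower in SEF1-VP16, which is 1.48% and 0.646% of the genes tested and 2.13% for both directions. The 4 SEF1-VP16 arrays lay above the 4 WT arrays in 69 of the 78 genes called higher and below them in 30 of the 34 called lower, while over all genes tested 4.5% lay wholly above and 3.49% wholly below (7.99% for both). Changes of called genes ranged from 0.59 to 2.70 on the log2 scale (median 0.80) among rises and from 0.59 to 1.47 in size (median 0.72) among falls, and 28 rises and 6 falls had a fitted change of at least 2-fold. One of these falls, that of SAKL0G13508g, has only a lower bound, given below, which is under 2-fold. The other probe of the gene changed in the same direction for 77 of 78 rises and 33 of 34 falls. It reached 1.5-fold in that direction for 62 of the 78 rises and 22 of the 34 falls. Over all genes, 96.9% changed by less than 1.5-fold. Within groups, arrays labelled YPD varied more than those labelled YPGly. Their scaled median absolute deviation from the group mean across genes was 0.130 to 0.250, against 0.085 to 0.143. SEs and adjusted p-values of the fit to all arrays, which uses a common spread per gene, may therefore be too small here. A fit to the 8 arrays labelled YPD alone called 43 genes higher and 14 lower. The unpaired t-test of the methods, which the study left unadjusted in its Sef1 comparisons, called 79 higher and 36 lower. Of these, 78 and 33 were among the main calls. After Benjamini-Hochberg adjustment, the same t-test called 21 and 4. RNA came from bulk cultures, in which a changed share of cells and a changed amount per cell cannot be told apart.

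**Figure D1:**
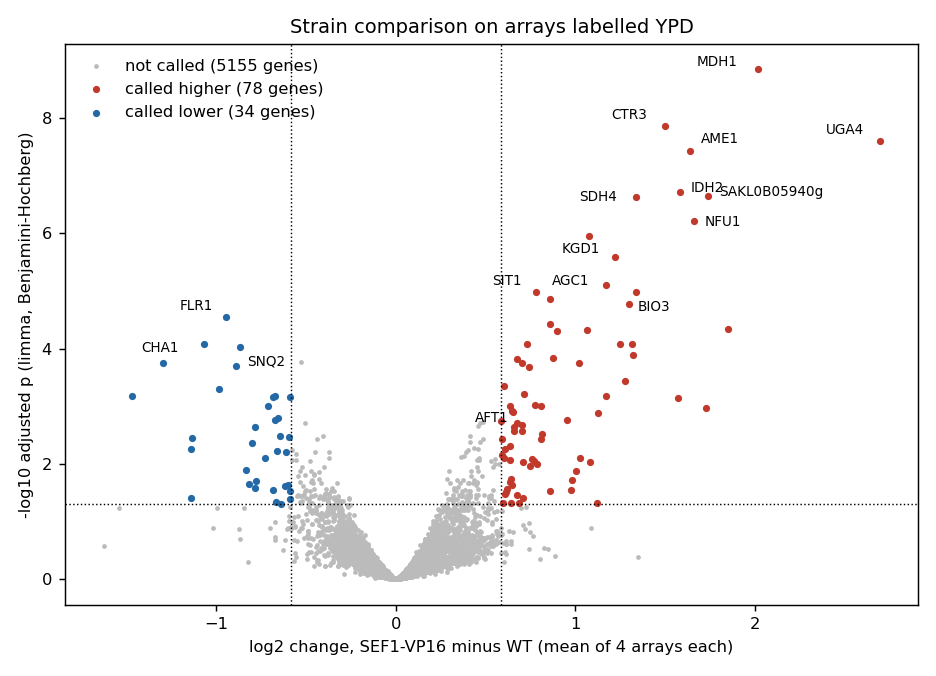
Log2 change (SEF1-VP16 minus WT, means of 4 arrays each) against −log10 of the limma adjusted p for 5267 genes on arrays labelled YPD, with dotted lines at 1.5-fold and at an adjusted p of 0.05. The 78 genes called higher reach a change of 2.70 for UGA4, and the 34 called lower reach −1.47.

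Genes of the TCA cycle were the list with the most members called higher. Of 21 genes for enzymes of the cycle and their isoenzymes, 10 rose, 0 fell and 11 were not called, and the median change was 0.57 against 0.02 over all genes tested. *MDH1* (SAKL0G19140g), for the mitochondrial malate dehydrogenase, rose most. It lay at 2.05, 1.88, 1.81 and 1.85 on the WT arrays and at 3.97, 3.97, 3.95 and 3.76 on the SEF1-VP16 arrays. The strains were separated by more than the range within either, and the change was 2.02 (SE 0.09, adjusted p 1.45e-09), or 4.05-fold. Both subunits of the NAD-dependent isocitrate dehydrogenase rose. *IDH2* (SAKL0G03520g) lay at 2.92, 2.65, 2.40 and 2.73 in WT and at 4.27, 4.36, 4.16 and 4.24 in SEF1-VP16, and *IDH1* (SAKL0E07876g) at 3.04, 2.45, 2.39 and 2.34 in WT and at 4.26, 3.94, 3.85 and 3.45 in SEF1-VP16. In neither gene did the strains overlap, although WT replicate 1 was high for *IDH1*. *IDH2* rose by 1.58 (SE 0.11, adjusted p 1.94e-07) and *IDH1* by 1.32 (SE 0.16, adjusted p 8.42e-05). *ACO1* (SAKL0H24046g), the aconitase that precedes them in the cycle, lay between 3.40 and 4.25 in WT and between 4.84 and 5.34 in SEF1-VP16, and rose by 1.27 (SE 0.18, adjusted p 3.72e-04).

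Of the genes for the steps after isocitrate dehydrogenase, some were called and others were not. *KGD1* (SAKL0E08866g), a subunit of α-ketoglutarate dehydrogenase, rose by 1.22 (SE 0.11, adjusted p 2.56e-06), and *KGD2* (SAKL0H15422g), a further subunit of that complex, by 0.78 (SE 0.12, adjusted p 9.54e-04). *LPD1* (SAKL0B01958g), whose product serves this complex and pyruvate dehydrogenase, had a change of 0.22 (adjusted p 0.241) and overlapping strains. The genes of succinyl-CoA ligase, *LSC1* (SAKL0G03630g) and *LSC2* (SAKL0H02464g), had changes of −0.15 and 0.03 (adjusted p 0.521 and 0.927). Among the 4 subunits of succinate dehydrogenase, *SDH4* (SAKL0H14146g) lay between 2.68 and 2.89 in WT and between 3.87 and 4.41 in SEF1-VP16. It rose by 1.34 (SE 0.10, adjusted p 2.37e-07). *SDH3* (SAKL0E04136g) rose by 0.81 (SE 0.13, adjusted p 9.89e-04) and *SDH1* (SAKL0G11440g) by 0.71 (SE 0.12, adjusted p 0.00266). *SDH2* (SAKL0H25850g), for the subunit that carries the iron-sulfur clusters, passed the p threshold but not the fold, at 0.55 (SE 0.12, adjusted p 0.00996, 1.47-fold). *FUM1* (SAKL0E00946g), fumarase, lay between 2.45 and 3.05 in WT and between 3.53 and 3.95 in SEF1-VP16, and rose by 1.07 (SE 0.12, adjusted p 4.81e-05).

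The citrate synthase genes and the remaining isoenzyme genes named here were not called. *CIT1* (SAKL0D09152g), the citrate synthase at the entry of the cycle, lay between 3.70 and 4.16 in WT and between 3.99 and 4.77 in SEF1-VP16, with a change of 0.52 (adjusted p 0.0588). *CIT3* (SAKL0B02926g), a citrate synthase of the methylcitrate route, had 0.21 (adjusted p 0.498), *MDH2* (SAKL0C12760g), the cytosolic malate dehydrogenase, −0.09 (adjusted p 0.732), and *MDH3* (SAKL0E04928g), the peroxisomal one, −0.09 (adjusted p 0.525). The NADP-dependent isocitrate dehydrogenase genes *IDP1* (SAKL0H02860g) and *IDP3* (SAKL0D08426g) had 0.19 (adjusted p 0.413) and 0.57 (adjusted p 0.0654). In *IDP3*, all SEF1-VP16 arrays nevertheless lay above all WT arrays. The count of TCA cycle genes called higher was 10 to 13 when any 1 of the 8 arrays was left out, and 4 with the methods' t-test after adjustment.

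**Figure D2:**
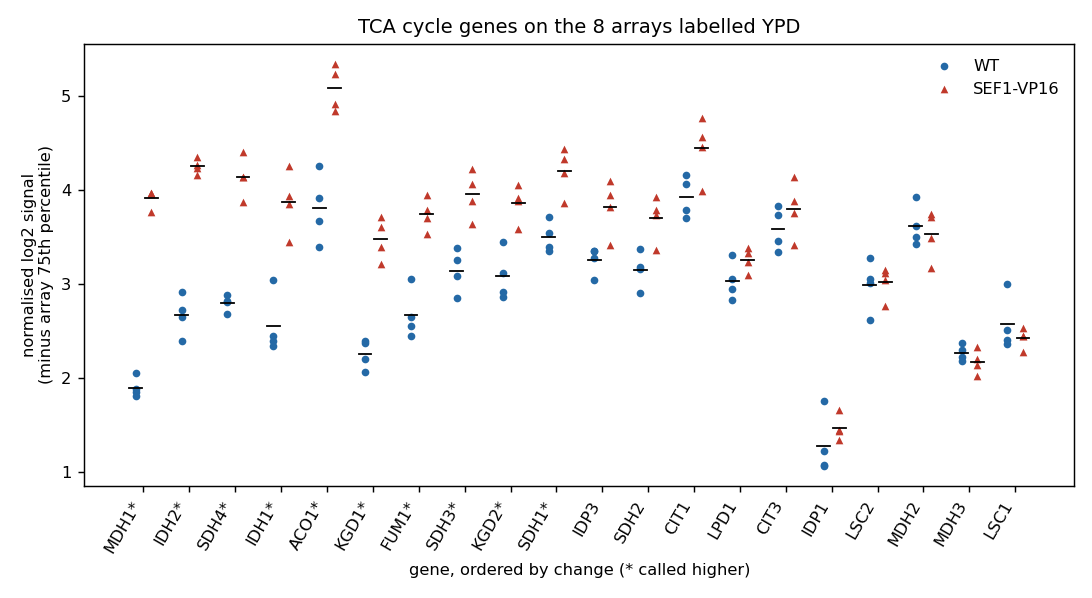
Level (log2 signal minus the array 75th percentile) of 20 TCA cycle genes on each of the 8 arrays labelled YPD, WT as circles and SEF1-VP16 as triangles, with black lines at the means of 4 arrays, ordered by change. The 10 genes marked with an asterisk were called higher, from MDH1 with a change of 2.02 to SDH1 with 0.71, and LSC1 at the right had −0.15.

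*SDH5* (SAKL0C08426g), which attaches the flavin cofactor to succinate dehydrogenase, was the only succinate dehydrogenase assembly gene that the lists named, and it lay at −0.66, −0.84, −0.48 and −1.27 in WT and at 0.39, 0.36, 0.41 and 0.27 in SEF1-VP16. The strains did not overlap, and the rise was 1.17 (SE 0.17, adjusted p 6.52e-04). *FMP21* (SAKL0D06908g), known since as the succinate dehydrogenase assembly factor Sdh8, rose by 1.08 (SE 0.23, adjusted p 0.00928), and *YMR31* (SAKL0F00660g), first described as a mitochondrial ribosomal protein and now known as the α-ketoglutarate dehydrogenase subunit Kgd4, by 1.25 (SE 0.15, adjusted p 8.42e-05). *YMR31* lay between −0.65 and −0.04 in WT and between 0.82 and 0.90 in SEF1-VP16. Both were named by the rule on neighbouring genes, not as list members.

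Of 12 genes for assembly of iron-sulfur clusters, 3 rose, 0 fell and 9 were not called, with a median change of 0.06. *AIM1* (SAKL0D14410g), whose product is known as Bol3 and acts late in the making of mitochondrial [4Fe-4S] proteins, lay at −2.86, −3.05, −2.37 and −3.58 in WT and at −1.64, −1.22, −1.24 and −1.47 in SEF1-VP16. It rose by 1.57 (SE 0.24, adjusted p 7.34e-04) without overlap of the strains. *IBA57* (SAKL0F15356g), for a further late-acting protein, rose by 0.65 (SE 0.10, adjusted p 0.00120), or 0.56, below 1.5-fold, without SEF1-VP16 replicate 3. *ISU1* (SAKL0H07238g), the scaffold on which clusters are first built, rose by 0.86 (SE 0.22, adjusted p 0.0297) with overlapping strains, and its call was lost in 5 of 8 omissions of 1 array, with adjusted p up to 0.102. *NFU1* (SAKL0D13046g), which delivers clusters to target enzymes, had the largest rise of this function. It lay at −0.32, 0.11, 0.31 and −0.33 in WT and at 1.43, 1.66, 1.62 and 1.71 in SEF1-VP16, a rise of 1.66 (SE 0.13, adjusted p 6.11e-07). *NFU1* and *SSQ1* (SAKL0H04004g), the chaperone that works with the scaffold and rose by 0.82, were named only in a table made from these arrays and are therefore not counted among the 12. The genes of the cysteine desulfurase *NFS1* (SAKL0D08668g), of frataxin *YFH1* (SAKL0E07062g) and of *ISA1* (SAKL0H25454g) had changes of −0.12, 0.20 and −0.06 (adjusted p 0.506, 0.549 and 0.751).

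Iron and copper uptake genes, of which those for iron uptake are targets of Sef1 in *C. albicans*, gave 5 rises, 0 falls and 25 genes not called among 30 (16.7% called against 2.13% of all genes), with a median of 0.06. The largest rise was that of *CTR3* (SAKL0G16038g), a high-affinity copper transporter of the plasma membrane. *CTR3* lay at −0.81, −1.08, −1.02 and −1.13 in WT and at 0.60, 0.47, 0.49 and 0.42 in SEF1-VP16. Its change of 1.5 (SE 0.08, adjusted p 1.39e-08) stood well clear of the spread within either strain. *CTR1* (SAKL0F03784g), a further copper transporter gene, had 0.37 (adjusted p 0.0338), below 1.5-fold. *SIT1* (SAKL0C12122g), a siderophore transporter, lay between −2.69 and −2.43 in WT and between −1.90 and −1.75 in SEF1-VP16, and rose by 0.78 (SE 0.08, adjusted p 1.05e-05). *FET3* (SAKL0B12056g), the copper-dependent ferroxidase of high-affinity iron uptake, lay at 0.16, −0.03, 0.00 and 0.11 in WT and at 0.47, 0.81, 0.56 and 1.1 in SEF1-VP16. The strains did not overlap, and *FET3* rose by 0.67 (SE 0.11, adjusted p 0.00195), or 0.55, below 1.5-fold, without SEF1-VP16 replicate 4. *FET2* (SAKL0H26202g), a relative of *FET3*, rose by 0.65 (SE 0.15, adjusted p 0.0231) with overlapping strains, and its call was lost in 4 of 8 omissions of 1 array, with adjusted p up to 0.0751. *AFT1* was the remaining gene called. Of the permease genes named *FTR1*, which work with the ferroxidase, SAKL0B03322g had 0.13 (adjusted p 0.809) and SAKL0H18920g 0.05 (adjusted p 0.840). *CTH1* (SAKL0H15334g), for a protein that destabilises mRNAs when iron is low, had 0.01 (adjusted p 0.967). *CCC2* (SAKL0H20108g), which loads copper into the ferroxidase, had −0.58 (adjusted p 0.00863), below 1.5-fold, its second copy SAKL0G01650g −0.32 (adjusted p 0.122), and no ferric reductase gene was called.

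Lists of other mitochondrial functions differed in their share of rises, which was 1.48% over all genes tested. The share was 18.2% for assembly of respiratory complexes, 15.8% for mitochondrial carriers and 7.14% for chaperones and proteases, from small counts that were not tested. None of 26 genes of the respiratory chain and ATP synthase was called (median −0.01, range −0.30 to 0.49). Succinate dehydrogenase, itself part of that chain, was counted in the TCA cycle list and not in this one. Of 11 genes for assembly of respiratory complexes, 2 rose: *AFG1* (SAKL0G04642g), for an ATPase of the inner membrane, by 0.86 (SE 0.10, adjusted p 3.81e-05), and *YLH47* (SAKL0F03718g), for an inner membrane protein bound to mitochondrial ribosomes, by 0.67 (SE 0.08, adjusted p 1.51e-04). Of 14 chaperone and protease genes, 1 rose, *HSP10* (SAKL0G06842g), the co-chaperonin of Hsp60, by 1.13 (SE 0.18, adjusted p 0.00132), while *HSP60* (SAKL0E02024g) had 0.19 (adjusted p 0.334). Of 19 mitochondrial carrier genes, 3 rose. *LEU5* (SAKL0A09306g), needed for coenzyme A in the mitochondrial matrix, lay at −0.83, −1.72, −1.78 and −1.60 in WT and at −0.21, −0.09, −0.26 and −0.09 in SEF1-VP16. It rose by 1.32 (SE 0.17, adjusted p 1.29e-04), with WT replicate 1 nearest to the SEF1-VP16 arrays. *AGC1* (SAKL0H24442g), the aspartate-glutamate carrier, rose by 1.17 (SE 0.11, adjusted p 7.86e-06). *PET8* (SAKL0D08646g), the S-adenosylmethionine carrier, rose by 0.59 (SE 0.12, adjusted p 0.00711), with overlapping strains, and fell below 1.5-fold in 6 of 8 omissions of 1 array (0.53 to 0.58). *CYT2* (SAKL0G19206g) for cytochrome c1 heme lyase and *ICP55* (SAKL0F09328g) for a mitochondrial peptidase, both named only in a table made from these arrays, rose by 0.64 and 0.59, calls that 3 and 4 of 8 omissions of 1 array ended.

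The largest rise of all was outside mitochondria. *UGA4* (SAKL0G14762g), the permease for γ-aminobutyrate (GABA) and polyamines, lay at −2.81, −3.53, −3.75 and −3.10 in WT and at −0.52, −0.73, −0.73 and −0.43 in SEF1-VP16. The rise of 2.70 (SE 0.16, adjusted p 2.50e-08) was 6.48-fold, and the lowest SEF1-VP16 array was above the highest WT array by more than either strain's range. It belonged to the list of amino acid use and permeases, in which 3 of 47 genes rose and 5 fell (median −0.16). The other rises there were *BNA3* (SAKL0D06886g), for kynurenine aminotransferase, by 0.66 (SE 0.11, adjusted p 0.00265; 0.58, below 1.5-fold, without WT replicate 3), and *SEO1* (SAKL0A02926g), for a permease of the allantoate family. *SEO1* was dim in WT (2 of 4 arrays well above background), its change was 0.98 (SE 0.23, adjusted p 0.0190), and its adjusted p was 0.0566 without WT replicate 4 and 0.0540 without SEF1-VP16 replicate 3. *AME1* (SAKL0A07392g), for a kinetochore protein, lay at −3.0, −2.66, −2.63 and −2.83 in WT and at −1.26, −1.09, −0.98 and −1.23 in SEF1-VP16, and rose by 1.64 (SE 0.10, adjusted p 3.72e-08). It was 1 of 14 kinetochore and chromosome segregation genes, of which the other 13 were not called. Of 18 genes for synthesis of thiamine, biotin, pyridoxine and NAD, *BIO3* (SAKL0H11528g), for an aminotransferase of biotin synthesis, and *BNA3* rose and *THI13* fell. *BIO3* lay at −1.77, −1.84, −1.90 and −1.92 in WT and at −0.32, −0.51, −0.33 and −1.08 in SEF1-VP16, where replicate 4 was low, and rose by 1.30 (SE 0.13, adjusted p 1.67e-05).

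Among the 15 largest rises, those of *YGR015C*, SAKL0B05940g, SAKL0D15334g and *YCR087C-A* were of genes with no place in the lists, as were many smaller rises. *YGR015C* (SAKL0H23210g), whose *S. cerevisiae* product is known as the ethanol acetyltransferase Eat1, lay between −3.17 and −2.67 in WT and between −1.81 and −1.29 in SEF1-VP16, and rose by 1.34 (SE 0.13, adjusted p 1.05e-05). SAKL0B05940g lay between −1.33 and −0.64 in WT and between 0.64 and 0.86 in SEF1-VP16, a rise of 1.74 (SE 0.13, adjusted p 2.27e-07). SAKL0D15334g lay between −4.60 and −3.80 in WT and between −2.71 and −1.87 in SEF1-VP16, a rise of 1.85 (SE 0.21, adjusted p 4.63e-05). *YCR087C-A* (SAKL0A00616g), dim in WT (3 of 4 arrays well above background), rose by 1.73 (SE 0.27, adjusted p 0.00109), from between −6.00 and −4.67 to between −4.04 and −3.28. None of the 4 genes had overlapping strains. Single members rose in 2 further lists. *MET17* (SAKL0H23892g), which makes homocysteine, rose by 1.00 (SE 0.22, adjusted p 0.0130; 1 of 17 sulfur and methionine genes), and *INO1* (SAKL0F00396g), for inositol phosphate synthesis, by 0.97 (SE 0.24, adjusted p 0.0281; 1 of 13 inositol and phospholipid genes). The strains overlapped in both, and the call of *INO1* was lost in 5 of 8 omissions of 1 array, with adjusted p up to 0.0968. Of 58 genes for ribosome biogenesis and RNA polymerases I and III, 2 rose (3.45%, median 0.11). *BRX1* (SAKL0C10428g) rose by 0.81 (SE 0.15, adjusted p 0.00372), and *RPC53* (SAKL0F10802g) by 0.61 (SE 0.15, adjusted p 0.0330), the latter not called without WT replicate 1, WT replicate 4 or SEF1-VP16 replicate 3 (adjusted p 0.0771, 0.100 and 0.115). *DBP2* (SAKL0E10670g), an RNA helicase gene named only in a table made from these arrays, rose by 0.75.

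Genes that fell included permeases, efflux pumps and genes of amino acid breakdown. SAKL0B00154g, which has no name here, had the largest fall. It lay at −3.45, −3.96, −3.73 and −3.54 in WT and at −5.83, −4.81, −5.39 and −4.53 in SEF1-VP16, where 3 of 4 arrays were well above background, and changed by −1.47 (SE 0.22, adjusted p 6.59e-04). *CHA1* (SAKL0C00418g), the serine and threonine deaminase, lay at 2.75, 2.99, 2.24 and 2.66 in WT and at 1.52, 1.48, 1.46 and 1.00 in SEF1-VP16. The strains did not overlap, and *CHA1* changed by −1.30 (SE 0.17, adjusted p 1.78e-04), or 2.46-fold. *CHA4* (SAKL0H16544g), for the activator of *CHA1* in *S. cerevisiae*, changed by −0.59 (SE 0.11, adjusted p 0.00337), and by −0.48 and −0.56, below 1.5-fold, without WT replicate 4 and without SEF1-VP16 replicate 1. Further members of the amino acid list that fell were *SRY1* (SAKL0A10626g), which deaminates hydroxyaspartate, at −0.68 (SE 0.10, adjusted p 7.01e-04; −0.58 without SEF1-VP16 replicate 2), *GCV2* (SAKL0A02948g) of the glycine decarboxylase, at −0.67 (SE 0.11, adjusted p 0.00175), and *OPT2* (SAKL0D09350g), an oligopeptide transporter gene, at −0.67 (SE 0.10, adjusted p 6.59e-04; −0.58 without WT replicate 1). The omissions brought *SRY1* and *OPT2* below 1.5-fold. *AGP3* (SAKL0B04554g), an amino acid permease gene, and *ARG5,6* (SAKL0F08888g) of arginine synthesis fell by 0.73 and 0.59, and *CAR1* (SAKL0E11880g), arginase, rose by 0.86, all 3 named only in a table made from these arrays, and the call of *ARG5,6* was lost in 3 of 8 omissions of 1 array.

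Of 18 genes for multidrug and polyamine efflux, 3 fell, 0 rose and 15 were not called (median −0.25). *FLR1* (SAKL0B12628g), a multidrug transporter of the major facilitator family, lay at −0.89, −1.10, −1.35 and −0.98 in WT and at −1.97, −1.93, −1.98 and −2.21 in SEF1-VP16. It changed by −0.94 (SE 0.10, adjusted p 2.86e-05), without overlap. *SNQ2* (SAKL0H21010g), an ATP-binding cassette pump gene, lay between 3.27 and 3.50 in WT and between 2.32 and 2.77 in SEF1-VP16, and changed by −0.87 (SE 0.11, adjusted p 9.51e-05), while its paralog SAKL0C11616g had −0.25 (adjusted p 0.203). *PDR15* (SAKL0G08008g), a further pump gene, changed by −0.66 (SE 0.13, adjusted p 0.00600), and by −0.55, below 1.5-fold, without WT replicate 2. The other probes of *SNQ2* and *PDR15* changed by −0.52 and −0.42, below 1.5-fold, and that of *FLR1* by −0.71. In the monocarboxylate transporter family 1 of 9 genes fell (median −0.21). This was *MCH4* (SAKL0B12738g), at −0.99 (SE 0.14, adjusted p 4.93e-04), between −2.75 and −2.21 in WT and between −3.93 and −3.27 in SEF1-VP16. *ESBP6* (SAKL0C09614g), of the same family but named only in a table made from these arrays, lay at −0.57, −0.57, −0.84 and −0.54 in WT and at −1.53, −1.48, −1.39 and −1.68 in SEF1-VP16, a change of −0.89 (SE 0.12, adjusted p 2.04e-04). *THI13* (SAKL0G11968g), for synthesis of the pyrimidine part of thiamine, lay between −0.99 and −0.40 in WT and between −2.05 and −1.69 in SEF1-VP16, and changed by −1.07 (SE 0.13, adjusted p 8.25e-05). *SPO23* (SAKL0A05632g) changed by −1.14 (SE 0.21, adjusted p 0.00358) and *ATG22* (SAKL0E02046g), for amino acid efflux from the vacuole, by −0.84 (SE 0.18, adjusted p 0.0126). In SEF1-VP16, none of the 4 arrays had SAKL0G13508g well above background, and its fall was at least 1.43-fold (adjusted p 0.00543).

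Genes around the entry of carbon into the cycle moved in both directions. Of 20 genes for the glyoxylate cycle, gluconeogenesis and acetate, 3 rose and 2 fell (median −0.14). *ICL2* (SAKL0B03212g), the mitochondrial methylisocitrate lyase, lay between 1.83 and 2.27 in WT and between 2.73 and 3.28 in SEF1-VP16, and rose by 0.95 (SE 0.16, adjusted p 0.00175). Its relative *ICL1* (SAKL0F08756g), the isocitrate lyase of the glyoxylate cycle, lay at 1.68, 1.62, 1.20 and 1.27 in WT and at 1.03, 0.61, 0.95 and −0.10 in SEF1-VP16. *ICL1* changed by −0.82 (SE 0.19, adjusted p 0.0225), and 4 of 8 omissions of 1 array ended the call (adjusted p up to 0.0554, or −0.58, below 1.5-fold, without SEF1-VP16 replicate 4). *ACH1* (SAKL0H19690g), which transfers coenzyme A from acetyl-CoA in mitochondria, rose by 0.64 (SE 0.15, adjusted p 0.0208), not called in 3 omissions (0.50 to 0.61, adjusted p up to 0.0582). *MAE1* (SAKL0A09372g), the mitochondrial malic enzyme, rose by 0.69 (SE 0.19, adjusted p 0.0475) and was lost in 6 of 8 omissions (adjusted p up to 0.144). *ATO3* (SAKL0G03278g), a putative ammonium exporter gene, changed by −0.78 (SE 0.18, adjusted p 0.0198) and was lost in 3 of 8 (adjusted p up to 0.0750). The strains overlapped in *MAE1* and *ATO3*. Of 26 genes for glycolysis and glycerol, only *GPD1* (SAKL0C07502g), glycerol-3-phosphate dehydrogenase, was called, with a rise of 0.66 (SE 0.11, adjusted p 0.00229), whereas the median of the list was −0.27 and 4 of its 26 changes were above 0. Of 12 genes for hexose transport and sensing, 1 fell (median −0.15), *HXT3* (SAKL0G07656g), at −0.64 (SE 0.18, adjusted p 0.0489), a call lost in 5 of 8 omissions (adjusted p up to 0.155). *HXT1* (SAKL0B12540g), named only in a table made from these arrays, had −0.66 and was lost in 5 of 8.

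**Figure D3:**
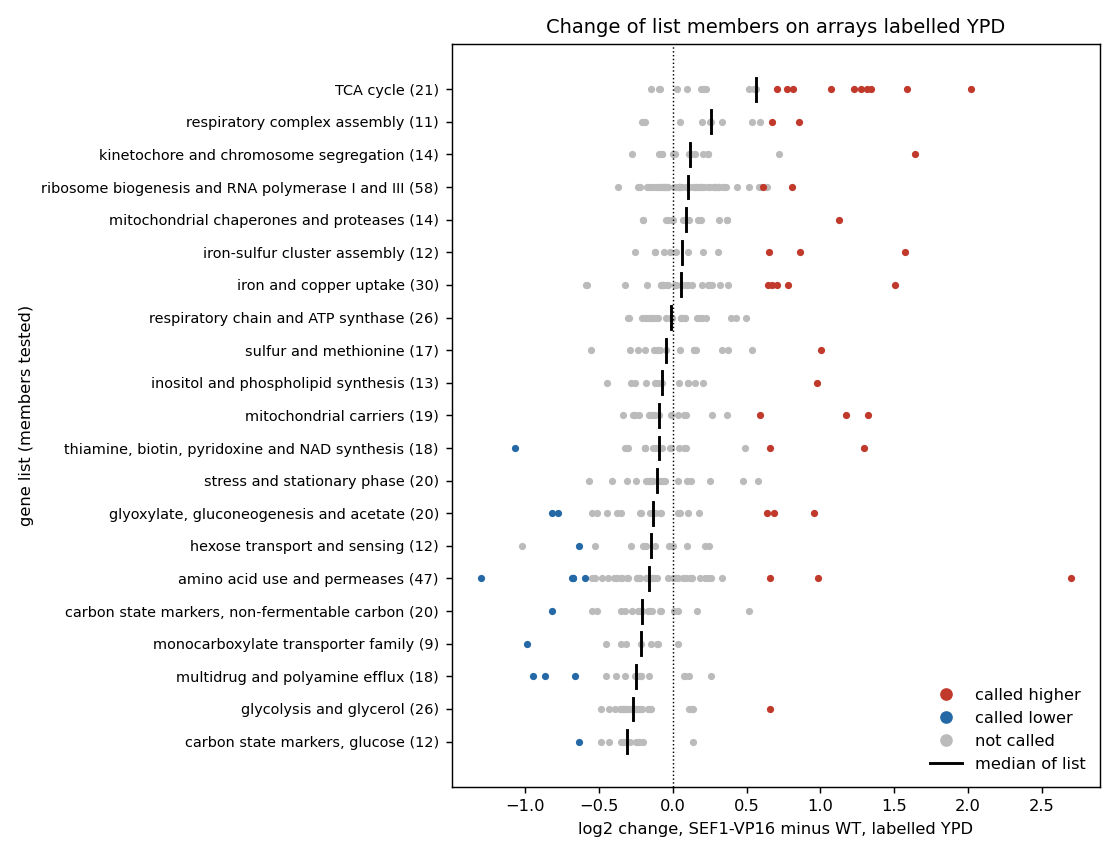
Log2 change (SEF1-VP16 minus WT, labelled YPD) of each member of 21 gene lists with more than 1 member tested, ordered by the median of the list (black line), with the number of members tested in brackets. The TCA cycle has 10 red points and a median of 0.57, the respiratory chain (without succinate dehydrogenase) none and a median of −0.01, and multidrug efflux 3 blue points and a median of −0.25.

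The list counts were read against the background of 1.48% of genes called higher and 0.646% called lower. The lists had been drawn up with earlier results of these data known, their members carry names only because the study listed them elsewhere, and the lists share members, so that none of these shares was tested. With 21 genes in the TCA list, 47.6% were called, against 0% of 26 respiratory chain genes and 5% of the 20 genes for non-fermentable carbon. Succinate dehydrogenase belongs to the cycle and to the respiratory chain but was counted in the TCA list and not in the respiratory chain list. The contrast between these lists therefore depends in part on how they were drawn up.

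Binding of Sef1 had been mapped by the study in cultures of its own, and only the assignment of genes to peaks was used. Peaks of the top group were ranked by their enrichment where the medium was YPGly. Of 717 genes tested that had a peak, 44 were called higher and 9 lower, or 6.14% and 1.26%, against 0.747% and 0.549% of 4550 genes with no peak. By the medium in which the peak had been found, the share was 10.9% called higher (29 of 265) for peaks found in both media, 4% (14 of 350) for peaks in YPGly only, and 0.98% (1 of 102) for peaks in YPD only, the single gene of the last group being *RSM10* (SAKL0D03036g), for a mitochondrial ribosomal protein, singled out here after its value was seen (change 0.65, not called without WT replicate 1). These shares were not tested against each other, and the median WT levels of the 3 classes were 0.39, 0.03 and −0.49. Genes with a peak in YPD only had a median change of 0.12 and 71.6% of changes above 0, against 53.7% of all genes, although 1 was called. Among 53 genes at the 50 highest-ranked peaks, 19 rose (35.8%) and 0 fell, and the median was 0.42. These 19 included 10 TCA cycle genes, and the others were *ACH1*, *BRR6*, *GPD1*, *HSP10*, *ICL2*, *ISU1*, *UBA2*, *YCR087C-A* and SAKL0B05940g. Genes with these peaks that were not called included *MDH2*, *CIT1*, *LPD1*, *HSP60* and the acetate transporter gene *ADY2* (SAKL0D09328g), at −0.15 (adjusted p 0.665). Genes at the 50 highest-ranked peaks had a median WT level of 1.90 against −1.18 over all genes, and the part of this in their share of calls was not tested. Of the 78 genes called higher, 34 had no peak assigned, among them *NFU1*, *AIM1*, *CTR3*, *SIT1*, *FET3* and *BIO3*, and of the 34 called lower 25 had none.

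Some peaks had been assigned to 2 genes. Of 103 such pairs with both genes tested, both rose in 2, 1 of the 2 rose in 11, and none rose in 90. Among all 717 genes tested with a peak, 6.14% were called higher, and the pair counts were not tested against this share. The pairs in which both rose were *IDH2* with *UBA2* (SAKL0G03498g), for a subunit of the SUMO-activating enzyme, and *FMP21* with *BNA3*. *IDH2* rose by 1.58 and *UBA2* by 0.64 (SE 0.10, adjusted p 9.89e-04), or 0.56 and 0.55, below 1.5-fold, without WT replicate 2 and without SEF1-VP16 replicate 4. In contrast, *SDH4* rose by 1.34 while *MAS1* (SAKL0H14168g) of the mitochondrial processing protease, which shares its peak, had 0.11. *KGD2* rose by 0.78 and its partner *SLX4* (SAKL0H15400g) had 0.17, and *LEU5* rose by 1.32 while the citrate carrier gene *CTP1* (SAKL0A09284g) had −0.15.

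**Figure D4:**
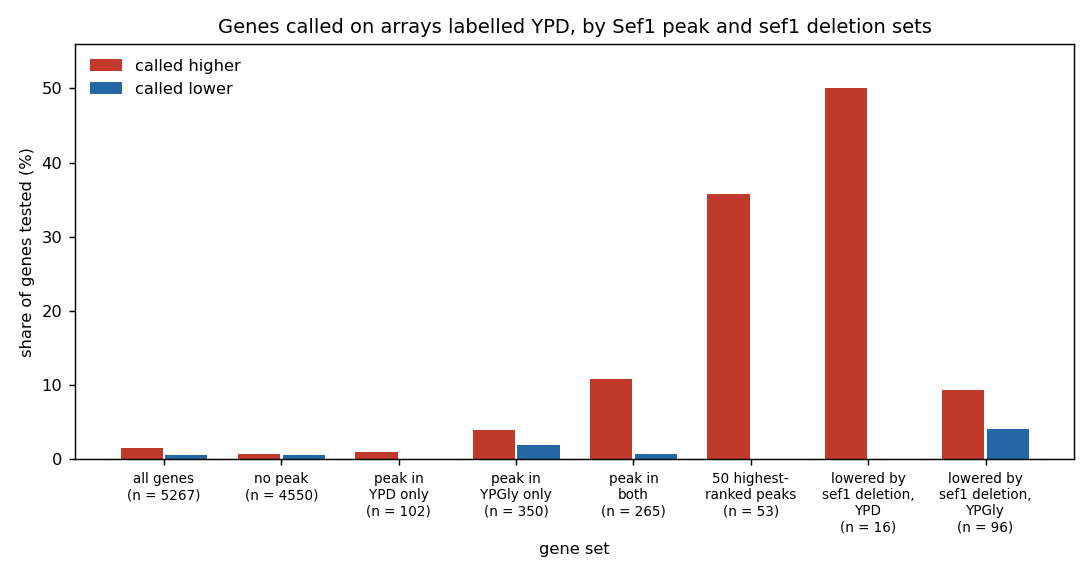
Share of genes tested that were called higher (red) or lower (blue) on arrays labelled YPD, in percent, by the medium in which a Sef1 peak had been found, for the 50 highest-ranked peaks and for genes lowered by deletion of SEF1, with the number of genes tested under each pair of bars. The share called higher is 1.48% for all genes, 10.9% for peaks in both media, 35.8% for the 50 highest-ranked peaks and 50% for the 16 genes lowered by the deletion in YPD.

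The study had also listed genes lowered when *SEF1* is deleted, in other cultures. Of 16 genes lowered by the deletion in YPD, *SEF1* itself among them, 8 rose here (50%) and 0 fell, with a median of 0.39. The 8 were *ACO1*, *IDH1*, *IDH2*, *SDH1*, *SDH3*, *AGC1*, *LEU5* and *YNL134C* (SAKL0A10560g), for a dehydrogenase-like protein. Those not called, other than *SEF1*, had changes between −0.44 for *AIM4* (SAKL0H09856g) and 0.14 for *CSI2* (SAKL0E01628g). Of 96 genes lowered by the deletion in YPGly, 9 rose and 4 fell, and their median was −0.06. In this longer list, 7 genes were at the 50 highest-ranked peaks, of which 6 rose, and 65 had no peak, of which 2 rose and 2 fell. *CHA1* and *FLR1*, with falls of 1.30 and 0.94 here, were also on the list of genes lowered by the deletion in YPGly.

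Some called genes were next to each other by locus tag among the genes tested, so that untested genes can lie between them. Over 5259 pairs of genes adjacent in this sense, both rose in 7 (0.133%), both fell in 4 and the genes moved in opposite directions in 1. The pair *UBA2* and *IDH2* and the pair *BNA3* and *FMP21* are those that share a peak. *YMR31* was next to *BRR6* (SAKL0F00682g), for a nuclear envelope protein, which had a peak and lay between −0.67 and −0.28 in WT and between 0.32 and 0.43 in SEF1-VP16. *BRR6* rose by 0.88 (SE 0.11, adjusted p 1.45e-04). *YCR087C-A* was next to *ABP1* (SAKL0A00594g), for an actin-binding protein, which rose by 0.63 (SE 0.12, adjusted p 0.00492), or 0.52, below 1.5-fold, without WT replicate 1. *SIT1* was next to *PCL1* (SAKL0C12100g), for a cyclin, which rose by 0.61 (SE 0.15, adjusted p 0.0309) and was lost in 4 of 8 omissions (adjusted p up to 0.102). *SRL4* (SAKL0E05500g) rose by 0.74 (SE 0.10, adjusted p 2.08e-04) beside *LUC7* (SAKL0E05522g), a splicing gene, which rose by 0.77 (SE 0.16, adjusted p 0.00875), or 0.57, below 1.5-fold, without WT replicate 2. SAKL0A10538g rose by 0.73 (SE 0.09, adjusted p 8.42e-05) beside *YNL134C*, which rose by 0.64 (SE 0.13, adjusted p 0.00844), or 0.56, below 1.5-fold, without WT replicate 3. Among adjacent falls, *RNR2* (SAKL0G13464g) of ribonucleotide reductase, next to SAKL0G13508g, changed by −0.78 (SE 0.19, adjusted p 0.0260) with overlapping strains and was lost in 3 of 8 omissions (adjusted p up to 0.0933). *AGP3* (−0.73, or −0.55 without WT replicate 4) was next to SAKL0B04576g (−0.65, or −0.57 without WT replicate 1 and −0.54 without SEF1-VP16 replicate 4), all 3 omissions ending below 1.5-fold. *SRY1* was next to SAKL0A10604g (−0.59, lost in 5 of 8 omissions, adjusted p up to 0.0764), and *MCH4* next to SAKL0B12804g (−0.62, or −0.54 without WT replicate 3 and −0.45 without SEF1-VP16 replicate 1). The pair that moved in opposite directions was *SEO1* and *GCV2*.

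The genes called on arrays labelled YPD were finally set beside the same strains on arrays labelled YPGly. The mean changes under the 2 labels share no array, but calls under both used a common spread per gene from all 16 arrays. Counts of genes called under both labels are therefore not independent. Of the 78 genes called higher, 68 had a change above 0 there (52.2% of all genes did) and 29 were also called higher (1.61% of all genes were), and of the 34 called lower, 25 had a change below 0 (47.8% of all genes did) and 5 were also called lower (0.684% of all genes were). The strain effect differed between the labelled media (adjusted p of 0.05 or less for the difference itself) in 15 of the 78 and 6 of the 34, against 1.39% of all genes, but these genes had been chosen for their effect where labelled YPD. The TCA cycle genes other than *MDH1* are not among them. *MDH1* rose by 2.02 where labelled YPD and by 1.29 where labelled YPGly, a difference of −0.73 (adjusted p 0.0112). *CTR3* rose by 1.5 where labelled YPD and had −0.23 where labelled YPGly, a difference of −1.73 (adjusted p 6.04e-07). *BIO3* rose by 1.30 where labelled YPD and fell by 0.63 where labelled YPGly (difference −1.93, adjusted p 6.49e-05), and it was the gene called in opposite directions. *SIT1* and *FET3* had larger effects where labelled YPGly, 1.23 and 1.34, but the differences missed the threshold (adjusted p 0.0552 and 0.0522). Of the falls, *CHA1*, *FLR1*, *ESBP6* and *MCH4* had −0.16, 0.01, 0.18 and −0.01 where labelled YPGly.

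**Figure D5:**
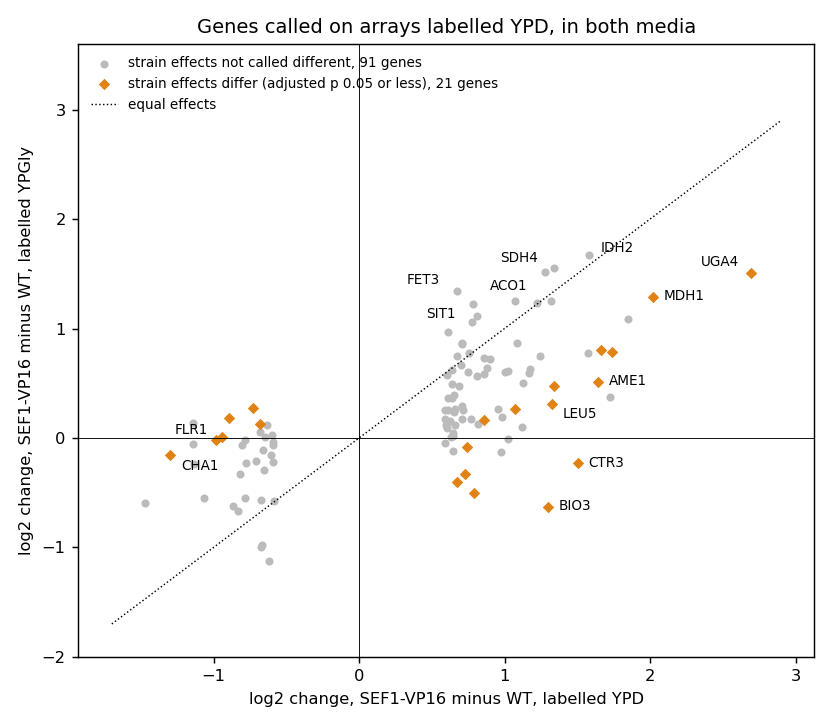
Log2 change (SEF1-VP16 minus WT) on arrays labelled YPD against that on arrays labelled YPGly for the 112 genes called on arrays labelled YPD, with diamonds where the effects differed at an adjusted p of 0.05 or less and a dotted line of equal effects. MDH1 at 2.02 and 1.29 lies below the line, CTR3 at 1.5 and −0.23 and BIO3 at 1.30 and −0.63 lie far below it, and IDH2, SDH4 and ACO1 lie near it.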

How the data were processed

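The authors hybridised dye-labelled cDNA to single-colour Agilent arrays and extracted spots with Agilent Feature Extraction 10.5.1.1. The deposited scanner files hold a processed intensity per spot, with background already subtracted. The deposited series table of log2 values equalled the log2 processed intensity plus 1 constant per array, to within rounding. From log2 of this signal the 75th percentile of the same array, over 10620 gene probes, was subtracted to give levels. Spots marked as outliers by the extraction software (172 among the probes used) were treated as missing. Of the probes of a gene, that with the highest mean on the 16 arrays was kept, and the gene was tested if every array of some group had it well above background.

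With limma 3.58.1 (R 4.3.3; lmFit, contrasts.fit and eBayes), 1 mean per group was fitted to all 16 arrays, and p-values of 5267 genes were adjusted by Benjamini-Hochberg. The median residual SD was 0.17. On data simulated for SEF1-VP16 minus WT, labelled YPD, with 200 of 5267 genes changed, 40.3% of 1.5-fold, 89.6% of 2-fold and 98.5% of 4-fold changes were called, with 1 false call. The simulated noise was independent between arrays and had the same spread in every group. It thus lacked the wider spread of arrays labelled YPD and the distance of WT replicates 1 and 4 from the others. Performance on the real arrays may be worse.

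The text names SEF1 and AFT1, the 15 largest rises and 10 largest falls without overlap of the strains, called members of 22 gene lists, called genes next to a called gene, and TCA cycle members. Other genes named, such as list members that were not called and partners at a peak, were picked after their values were seen. A gene counted in a list only if a table of the study not made from these arrays named it. Such tables covered Sef1 peaks, low iron, deletion of *SEF1* and *AFT1*, and orthologs. They named 2537 of the 5267 genes tested, so list members need not represent all genes. The comparison, members and lists were chosen with earlier results of these data known. Alternatives covered normalization, background, probe, filter, samples, test, threshold, weights, block and omitted arrays. The labels call the 4 arrays of a group biological repeats. No genome was used, and no sequence is shown. One TCA cycle gene that was tested and counted is not reported here by name or value.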

Additional observations from a re-analysis of the deposited data

Results flagged for a closer look

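Among the 88 genes named by the rule, 176 groups of 4 arrays labelled YPD were looked over for 1 array standing far from the other 3, taken as a gap to the nearest array that fills more of the group's range than Dixon's limit. This held in 14 groups, and chance gives about 1 in 20. In WT, replicate 1 was the far array for *SRY1* (1.45 against 1.40 to 1.41, gap 0.915 of the range), *IDH1* (3.04 against 2.34 to 2.45, gap 0.849) and *HXT3* (4.45 against 3.68 to 3.81, gap 0.83). Replicate 2 was far for *SIT1* (gap 0.878), replicate 3 for *ESBP6* (0.887) and replicate 4 for *AGP3* (0.873). In SEF1-VP16, replicate 4 was far for *MDH1* (3.76 against 3.95 to 3.97, gap 0.917), *CHA1* (1.00 against 1.46 to 1.52, gap 0.875), *UBA2* (gap 0.866), *LUC7* (0.851) and SAKL0B04576g (0.9). Replicate 2 was far for *AGP3* (0.884) and *SEO1* (0.862), and replicate 1 for SAKL0B12804g (0.836).

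The strain effect labelled YPGly minus that labelled YPD differed from 0, at an adjusted p of 0.05 or less in limma, for 17 of the named genes. Among rises the difference was −1.93 for *BIO3*, −1.73 for *CTR3*, −1.19 for *UGA4* (2.70 where labelled YPD, 1.5 where labelled YPGly, adjusted p 0.0162), −1.13 for *AME1* (adjusted p 9.86e-04), −1.06 for SAKL0A10538g (adjusted p 4.60e-04), −1.01 for *LEU5* (adjusted p 0.0427), −0.956 for SAKL0B05940g (adjusted p 0.0134), −0.864 for *YGR015C* (adjusted p 0.0307), −0.86 for *NFU1* (adjusted p 0.0292), −0.831 for *SRL4* (adjusted p 0.00816) and −0.725 for *MDH1*. Among falls it was 1.14 for *CHA1* (adjusted p 0.0281), 1.07 for *ESBP6* (adjusted p 0.00433), 1.00 for *AGP3* (adjusted p 0.0260), 0.971 for *MCH4* (adjusted p 0.0259), 0.95 for *FLR1* (adjusted p 0.00394) and 0.81 for *SRY1* (adjusted p 0.0134). All of these genes but *SRL4*, SAKL0A10538g, *AGP3* and *SRY1* had been named for the size of their change where labelled YPD. Labelled medium and slide cannot be told apart in any of these differences.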

How the results depend on the processing

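The 78 rises and 34 falls became 43 and 14 with only the 8 arrays labelled YPD, and 79 and 36 with the unadjusted t-test of the methods. They became 21 and 4 with that t-test adjusted, 168 and 113 with adjusted p alone, and 28 and 6 at 2-fold. Leaving out 1 array gave 60 to 112 rises and 25 to 57 falls, the highest without WT YPD replicate 3 and without SEF1-VP16 YPD replicate 4. Median centring gave 64 rises and 44 falls, so that the share of rises among calls went from 69.6% to 59.3%. Without WT YPD replicates 1 and 4 together, chosen after seeing the data, 64 rose and 28 fell, of which 54 and 17 were among the main calls. TCA cycle rises (10) were 10 to 13 with 1 array left out and 4 with the adjusted t-test, and rises at the 50 highest-ranked peaks (19) were 17 to 21, 6 with that test and 10 at 2-fold. With the replicate number as a replicate block within each labelled medium, 69 rose and 33 fell, of which 68 and 28 were among the main calls. Same-numbered arrays labelled YPD had deviations that correlated at −0.04, −0.06, 0.40 and 0.41, and 3 of 8 arrays correlated best with their own number. These values do not settle whether the numbers, which are also array columns, pair the samples. Of the 112 calls, 22 held in all 21 settings that kept the threshold and 51 were lost without some single array. No named gene changed sign in a call. The background alternative used median in place of mean signals, which the files used here do not hold. The number of arrays, 4 a group, limits precision.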
